A study of Caenorhabditis elegans with 139 samples.

Results

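The mRNA of single embryos of the nematode Caenorhabditis elegans was compared between 2 steps of mid embryogenesis: 10 embryos labelled 200 to 220 min and 8 embryos labelled 260 to 290 min after the 4-cell stage, 18 of the 139 embryos of the series. Embryos were chosen by their labelled time, and 1 library of 200 min was left out. Embryos at the 4-cell stage were cut out of adults, incubated for the stated time and frozen, and each library holds 1 embryo. No strain, mutation or treatment distinguishes the groups in the labels, and the strain was not stated. The earlier group holds embryos labelled 200, 210 and 220 min, and the later group embryos labelled 260, 270, 280 and 290 min. CEL-Seq, the assay, adds a sample barcode during reverse transcription, pools the samples for linear RNA amplification and reads the ends of transcripts, so a gene's count does not grow with its length. Separate embryos are the replicates, and the morphological stage of an embryo is not among its labels.

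In this interval of development most embryonic cell divisions come to an end. The epidermis spreads over the embryo and closes along the ventral midline, which is called ventral enclosure, and the embryo then begins to elongate. Replication and mitosis use proteins that dividing cells make in quantity, such as the MCM helicase and ribonucleotide reductase. Epidermal cells are joined by apical junctions, anchored to the muscle beneath them by hemidesmosomes, and covered first by an apical precuticle and later by a collagen cuticle. Body wall muscle cells assemble sarcomeres and attach through dense bodies and basement membrane during the same period.

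Gene counts per embryo ran from 135936 to 2867909 in the earlier group (median 729417) and from 18624 to 3169191 in the later group (median 912370.5). Levels are given in CPM, gene counts scaled to a total of 1000000 per embryo. Along the title numbers the labelled time starts over several times, and each such stretch is called a block here. The labels name no batch. Embryo 62 is from block 2. Blocks 3, 4 and 5 each hold embryos of both groups, and the difference can therefore be read within each of them. Some libraries stood apart. Embryo 125 of the later group had 18624 gene counts, and a count of 0 there allows up to 161 CPM (3 counts of the total, counting error only), against 0.947 to 40.1 CPM in the other 17 embryos. Embryo 62 of the earlier group had 5334 genes detected, the fewest of its group. In a comparison of whole profiles over 8987 genes, 15 of the 18 embryos were closest to their own time window. Embryo 74 (200 min) was closest to the embryos of 150 to 190 min, embryo 118 (210 min) to those of 230 to 250 min, and embryo 79 (280 min) to those of 350 to 390 min. Against embryos of other blocks alone, embryo 118 was closest to those of 260 to 290 min, the later group, and embryo 79 to those of 300 to 340 min. Without these 3 embryos 89 of the 97 called genes named by rule were called the same way, 5 were tested and not called, and 3 had too few counts to test. The fold became more than 1.5 times larger for 20 of the 97 and smaller by as much for 2. Embryo 61, labelled 200 min, was left out. It had 17878 gene counts, and 14.9% of its gene and spike-in counts came from spike-ins, against 0.107% to 0.843% in the other earlier embryos. Thus it was rich in spike-ins and poor in genes, but spike-ins were not the larger part of its counts.

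Of 5907 genes with enough counts to test, 421 (7.13%) were higher and 331 (5.6%) were lower at 260 to 290 min. A gene was called when the Benjamini-Hochberg adjusted p of edgeR's quasi-likelihood test was under 0.05 and the fold was at least 2. All 8 later embryos lay above all 10 earlier ones for 73 genes tested (1.24%), and below them for 81 (1.37%). At low levels such a lack of overlap rests on few counts. In embryo 125, 1 count is 53.7 CPM, and a count of 0 allows up to 161 CPM. The median log2 difference over all genes tested was -0.03. Both scaling methods gave nearly equal counts: 426 and 330 with relative log expression size factors. In a whole embryo, fewer cells of a type and less RNA per cell cannot be told apart, and CPM are shares of an embryo's gene counts rather than amounts. A gene with counts in 1 group alone enters the test through that group, so counts of called members in a list describe the members tested and not the whole list. The list counts below stand beside 7.13% higher and 5.6% lower over all genes tested. Within block 5 these shares were 3.11% and 3.58%. A count near such a share is no result about a list. Of the 116 genes named by rule, 19 share exon sequence with another gene, 18 of them on the opposite strand. Among these 18 are mcm-2, mcm-3, mcm-7, smp-1, vab-1, vab-10, pat-2, T22B7.3 and ceh-40. Whether strand was used in counting is not stated in the labels. The remaining gene, lin-26, overlaps lir-1 on the same strand.

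The genes of DNA replication and mitosis formed the largest group of falls among the lists examined. Of 71 members tested (76 in the list), 35 fell and 0 rose, beside 5.6% of all genes that fell, and 68 of the 71 lay below 0. Their median log2 difference was -1.01. The list also holds the eggshell gene cpg-1 and the repressor of cell cycle genes lin-35, which is among the 35 falls. The members' share of an embryo's gene counts ran from 1.73% to 2.96% at 200 to 220 min and from 0.785% to 1.61% at 260 to 290 min, so every later embryo lay below every earlier one. The lowest early share, 1.73%, belonged to embryo 74. Within block 5, 21 of 64 members tested fell, with a median of -1.01.

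**Figure D1:**
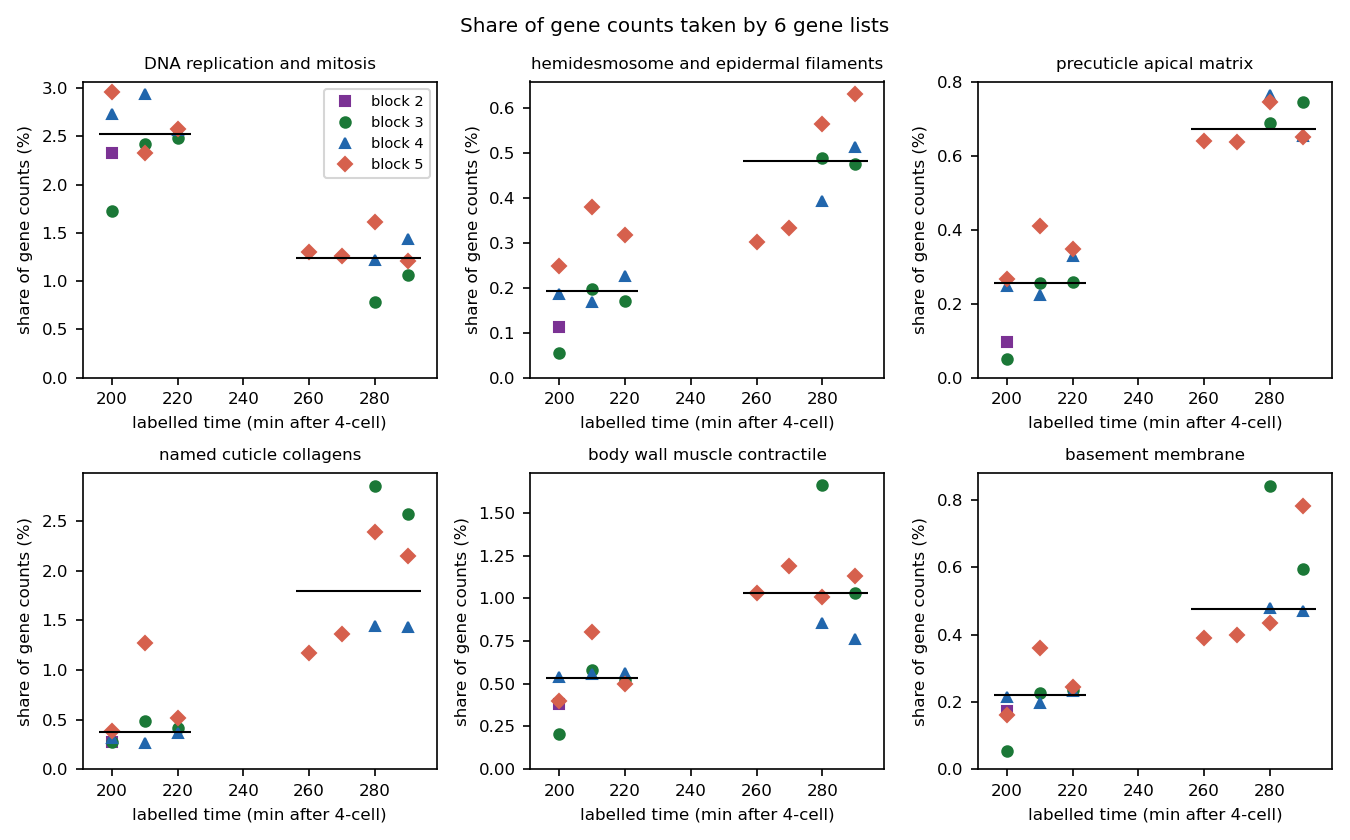
Share of an embryo's gene counts (percent, vertical axes from 0) taken by all members of 6 gene lists, against labelled time in minutes after the 4-cell stage. Each point is 1 embryo, shape and colour give the block of title numbers, and the horizontal lines are group medians. Shares of replication and mitosis genes in the 8 later embryos, 0.785% to 1.61%, lie below all 10 earlier ones, while precuticle shares, 0.638% to 0.767%, lie above all earlier ones.

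The list was divided by role after its values were seen. Of 30 members that act in replication and S phase, 23 fell, with a median log2 difference of -1.45, and all 30 were below 0. Of 31 members of mitosis, spindle and centrosome, 9 fell, with a median of -0.79, and 30 were below 0. Some of the 71 members tested, lin-35 among them, are in neither sub-list. The difference between these sub-lists was not tested.

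All 6 subunits of the MCM helicase, which unwinds DNA at replication forks, fell. mcm-3 had a lowest, median and highest level of 237, 536 and 1002 CPM in the earlier group and 53.7, 105 and 169 CPM in the later group. Its groups did not overlap, and the log2 difference was -2.35 ± 0.26 (SE), with an adjusted p of 5.64e-07 in edgeR. mcm-7 went from 356, 1664 and 2203 CPM to 143, 393 and 571 CPM (log2 difference -1.98 ± 0.29, adjusted p 2.89e-05), and embryo 74, at 356 CPM, was the only earlier embryo within the range of the later ones. mcm-2 fell the most of the 6, by 2.71 on the log2 scale, and its highest later value, 215 CPM, came from the shallow embryo 125. mcm-5 ran from 314, 536 and 882 CPM to 87.3, 165 and 206 CPM, again with no overlap.

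Ribonucleotide reductase, which supplies the building blocks of DNA, fell in both of its subunits. The large subunit rnr-1 had 181, 441 and 511 CPM and then 53.7, 90.3 and 147 CPM (lowest, median, highest), with no overlap, a log2 difference of -2.14 ± 0.23 and an adjusted p of 5.49e-07. The small subunit rnr-2 fell by 1.1 on the log2 scale. pcn-1, the sliding clamp of DNA polymerase, went from 306, 722 and 860.4 CPM to 53.7, 203 and 266 CPM without overlap (log2 difference -1.79 ± 0.24, adjusted p 1.16e-05). orc-1 and cdt-1, which load the helicase onto origins, had log2 differences of -1.98 and -1.45, and cye-1, the cyclin E that drives entry into S phase, -1.95. Both orc-1 and cye-1 had low levels, with medians of 22.6 and 14.9 CPM in the later group.

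Among mitotic genes, hcp-3, the centromeric histone, fell without overlap from 160.4, 212 and 294 CPM to 24.9, 72.6 and 154 CPM (log2 difference -1.3 ± 0.27, adjusted p 0.00112). The chromosomal passenger genes icp-1 and bir-1 had log2 differences of -1.35 and -1.25, and the spindle checkpoint kinase bub-1 of -1.12. The mitotic cyclin cyb-1 passed the p threshold but not the fold: 764, 911 and 1426 CPM and then 280.5, 656 and 913 CPM, a log2 difference of -0.64 ± 0.2 with an adjusted p of 0.0293. None of 4 cell cycle inhibitors tested was called. For cki-1, an inhibitor of cyclin-dependent kinases, the log2 difference was 0.77 ± 0.22 (adjusted p 0.0144, fold under 2), with a median of 335 CPM and then 668 CPM. lin-35, the Rb homologue that represses cell cycle genes in many tissues, fell by 1.28 on the log2 scale (adjusted p 8.21e-04).

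**Figure D2:**
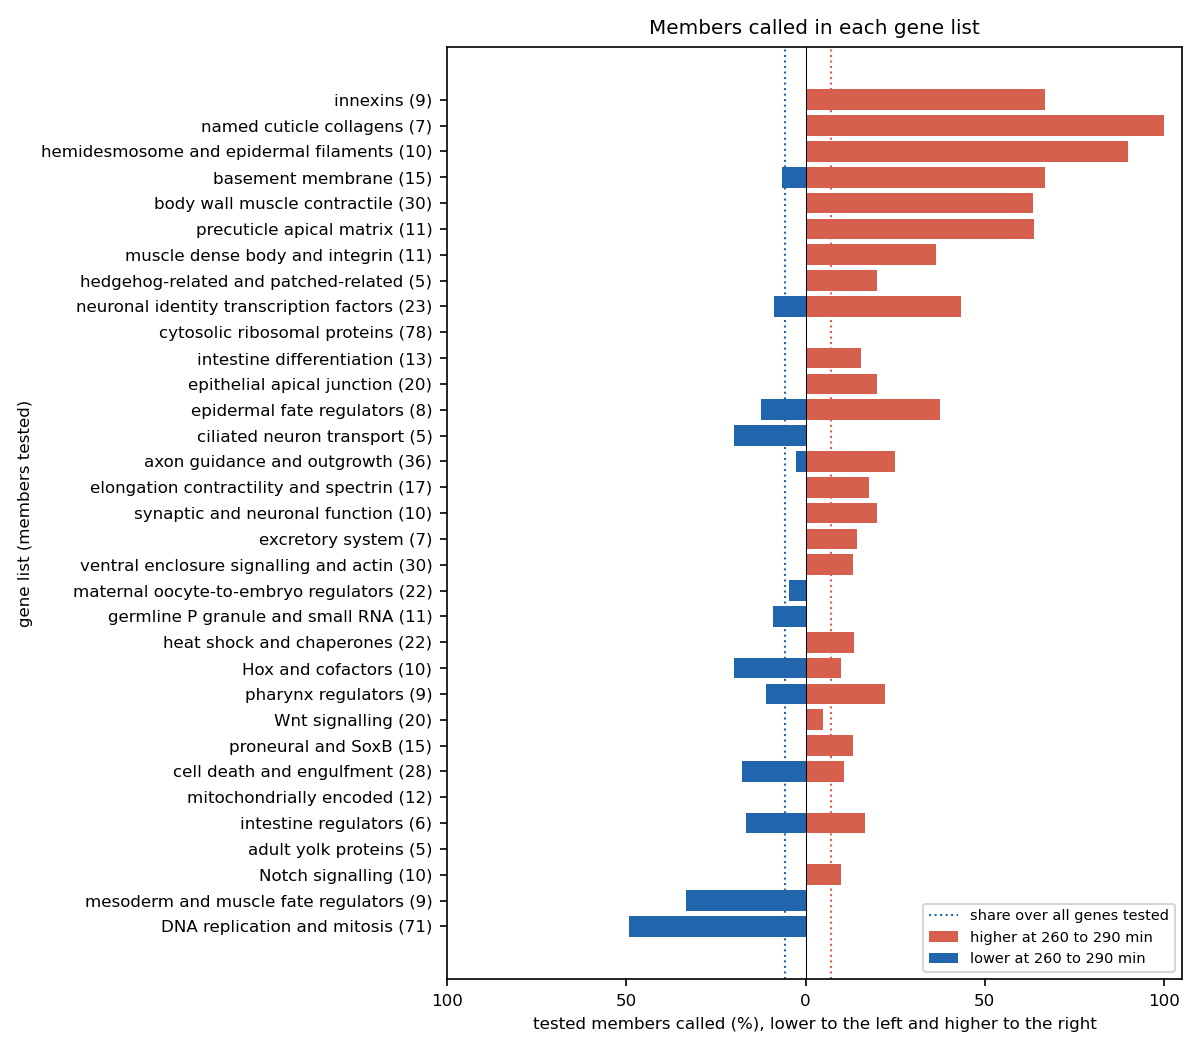
Percentage of tested members of each gene list called higher (right, red) or lower (left, blue) at 260 to 290 min, for lists with at least 5 tested members (the number is in parentheses), ordered by median log2 difference. Dotted lines give the shares over all 5907 genes, 7.13% higher and 5.6% lower. Replication and mitosis has 35 of 71 members lower, and the 7 named cuticle collagens are all higher.

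Of 8 regulators of epidermal fate tested, 3 rose and 1 fell. elt-1, the GATA factor that specifies the major epidermal cells, fell from 125, 236 and 454 CPM to 0, 81 and 126 CPM (log2 difference -1.45 ± 0.27, adjusted p 4.04e-04). Its highest later embryo (126 CPM) barely exceeded the lowest earlier one, embryo 118 (125 CPM). elt-3, a GATA factor that acts after elt-1, rose from a median of 27.9 CPM to 121 CPM (log2 difference 1.74 ± 0.34, adjusted p 5.83e-04), and only embryo 125, with 0 counts, and embryos 79 and 92 lay below the highest earlier embryo. The adjacent GATA genes egl-18 and elt-6, which maintain seam cells, rose with log2 differences of 2.55 and 1.78. lin-26 and nhr-25, both needed for epidermal cells, were not called, with log2 differences of 0.16 ± 0.3 and -0.37 ± 0.28. lin-26 shares exon sequence with lir-1 on the same strand, and how reads there were assigned is not stated in the labels.

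Apical junctions form the belt that holds epidermal cells together. Of 20 tested members of that list, 4 rose and 0 fell, beside 7.13% and 5.6% of all genes tested. Within block 5 none of 16 was called, beside 3.11% higher and 3.58% lower of all genes tested there. ajm-1, a structural protein of the junction, had 32.8, 168 and 433 CPM and then 376, 797 and 1297 CPM, and all later embryos but the shallow embryo 125 lay above all earlier ones (log2 difference 2.1 ± 0.34, adjusted p 7.01e-05). vab-9, a claudin-like membrane protein, rose from near 0 in most earlier embryos to a median of 82.3 CPM (log2 difference 5.06 ± 0.76), and had too few counts to test without embryos 74, 79 and 118. cdh-3, a Fat-like cadherin, and sax-7, an L1-type adhesion molecule, had log2 differences of 2.35 and 1.88. hmr-1, the classical cadherin, had 52.3, 153 and 273 CPM and then 163, 274 and 409 CPM, short of the fold threshold (log2 difference 0.77 ± 0.27, adjusted p 0.0485). The scaffold dlg-1 narrowly missed the p threshold (log2 difference 0.86 ± 0.31, adjusted p 0.053).

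Most genes known to act in ventral enclosure were not called. Of 30 tested, 4 rose and 0 fell, beside 7.13% and 5.6% of all genes tested, and the median log2 difference was 0.25. Within block 5, 1 of 27 rose, beside 3.11% of all genes tested there. The 4 are signalling proteins at the cell surface. efn-2, an ephrin, had 0, 39.4 and 99.1 CPM and then 105, 154 and 227 CPM with no overlap (log2 difference 1.91 ± 0.38, adjusted p 7.72e-04). vab-1, the Eph receptor, rose by a log2 difference of 1.27 ± 0.34 (adjusted p 0.00908). smp-1, a semaphorin, and plx-2, a plexin receptor, had log2 differences of 2.21 and 2.02. Genes for contractility and spectrin, used in elongation, gave 3 rises among 17 tested: unc-53 (2.82), the β-spectrin unc-70 (1.27) and the βH-spectrin sma-1 (1.02). For sma-1 the groups did not overlap (28.9 to 449 CPM and then 481 to 848 CPM), but its log2 difference sits at the fold threshold and missed it in 6 of 18 fits with 1 embryo left out (0.87 without embryo 74), and it was 0.92 without embryos 74, 79 and 118.

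Hemidesmosomes anchor the epidermis to the muscle and the matrix. Of 10 tested members of the hemidesmosome and epidermal filament list, 9 rose and 0 fell, with a median log2 difference of 2.44. Within block 5 none of the 10 was called, at a median of 0.74, and without embryos 74, 79 and 118 the count was 8 of 9, at a median of 3.21. mup-4, an apical hemidesmosome receptor, had 0, 3.65 and 93.9 CPM and then 34.1, 75.8 and 299 CPM (log2 difference 4.04 ± 0.78, adjusted p 5.54e-04). Earlier embryos other than embryo 118 (93.9 CPM) were at 10.3 CPM or below, and later ones at 34.1 CPM or above. The log2 difference of mup-4 was 5.32 without embryos 74, 79 and 118, and 0.99, not called, within block 5. let-805, the basal receptor, and the intermediate filament genes ifb-1 and ifa-3 had log2 differences of 2.62, 2.45 and 3.6. vab-10, the spectraplakin that links receptors to filaments, rose by 1.27 ± 0.37 (adjusted p 0.0182). Its adjusted p was 0.052 without embryo 79 and 0.0537 without embryo 80.

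The precuticle is the first apical matrix of the epidermis. Of 11 tested members, 7 rose and 0 fell, with a median log2 difference of 1.46, and their share of gene counts went from 0.0504% to 0.41% before to 0.638% to 0.767% after, without overlap. Within block 5, 1 of 10 members rose, at a median of 0.7. noah-1, a zona pellucida domain protein of that layer, had 81.9, 550.3 and 824 CPM and then 913, 1329 and 2244 CPM with no overlap (log2 difference 1.52 ± 0.29, adjusted p 5.31e-04). Its partner noah-2 and the fibrillin-like fbn-1 had log2 differences of 1.46 and 1.26. cutl-2, a cuticlin-like gene, rose the most of the list, from 0, 123 and 272 CPM to 499, 1289 and 1879 CPM (log2 difference 3.23 ± 0.46, adjusted p 2.18e-05). let-653, which lines tubes in the embryo, was not called, with a median of 85.5 CPM and then 85.6 CPM.

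The collagen cuticle itself is laid down later in embryogenesis. All 7 named cuticle collagens with enough counts rose, of 20 in the list, with a median log2 difference of 2.71. Within block 5, 1 of these 7 was called, at a median of 1.22, and without embryos 74, 79 and 118 all 7 were, at a median of 3.77. sqt-3 had 271, 520.3 and 2076 CPM and then 2094, 2563 and 5971 CPM, without overlap though embryo 118 at 2076 CPM nearly touched the lowest later value (log2 difference 2.22 ± 0.34, adjusted p 3.95e-05). dpy-17 ran from 374, 612 and 2399 CPM to 2726, 3658 and 5208 CPM, also without overlap. dpy-7 was at 10.3 CPM or below in 9 earlier embryos and at 250 CPM in embryo 118, and at 129, 262 and 848 CPM later (log2 difference 4.32 ± 0.89, adjusted p 0.00111). The log2 difference of dpy-7 was 8.44 within block 3, 6.45 within block 4 and 1.22 within block 5, which holds embryo 118. The 20 collagens of the list together took 0.261% to 1.28% of counts in the earlier group, embryo 118 being the highest, and 1.17% to 2.86% later, so the ranges overlapped.

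Body wall muscle was represented by lists of contractile proteins, fate regulators and attachments. Of 30 contractile members tested, 19 rose and 0 fell, with a median log2 difference of 2.06 and 29 above 0. Within block 5, 5 of 27 rose, at a median of 0.99. myo-3, the heavy chain of the myosin at the filament core, had 0, 3.7 and 151 CPM and then 0, 66.6 and 368 CPM (log2 difference 2.87 ± 0.84, adjusted p 0.0181). The call was lost without embryo 79, at a log2 difference of 2.21 and an adjusted p of 0.0783, and within block 5 the difference was 0.14. tmd-2, a tropomodulin, rose by 3.54 ± 1.00, and by 7.95 without embryos 74, 79 and 118. unc-54, the main myosin heavy chain, went from 0, 6.72 and 67.8 CPM to 23.3, 75.7 and 294 CPM (log2 difference 3.33 ± 0.72, adjusted p 0.00166). Paramyosin, unc-15, and the titin-like ttn-1 had log2 differences of 2.59 and 3.46. act-4, an actin, ran from 565, 1656 and 2604 CPM to 2647, 3987 and 5467 CPM with no overlap. The list also holds the epidermal gene mup-4, described above.

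Of 9 regulators of mesoderm and muscle fate, 0 rose and 3 fell: the T-box genes tbx-9 (-2.65) and tbx-8 (-1.4), and the bHLH gene hnd-1 (-1.43). hlh-1, the MyoD homologue, was not called (log2 difference -0.11 ± 0.29, adjusted p 0.874), and neither was unc-120 (0.41 ± 0.22, adjusted p 0.238). hnd-1 lost its call when embryos 74, 79 and 118 were left out, at -0.96.

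Dense bodies anchor the thin filaments of muscle to the basement membrane. In their list 4 of 11 tested rose and 0 fell, 7 of 15 without embryos 62 and 125, and 7 of 14 without embryo 62 alone. pat-2, an α-integrin, had 5.15, 44.1 and 99.1 CPM and then 103, 189 and 266 CPM without overlap (log2 difference 2.04 ± 0.32, adjusted p 6.01e-05). pat-6, the parvin of the integrin complex, rose by 1.34 ± 0.3 (adjusted p 0.00226). unc-95 and the dystrophin gene dys-1 had log2 differences of 2.65 and 1.53, and for dys-1 the adjusted p ranged up to 0.0582 when single embryos were left out.

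The basement membrane lies between muscle and epidermis and around the other tissues. Of 15 tested, 10 rose and 1 fell, with a median log2 difference of 2.19, and their share of gene counts did not overlap between the groups (0.053% to 0.359% and then 0.389% to 0.841%). Within block 5 none of 13 was called, at a median of 0.73. The type IV collagens emb-9 and let-2 had medians of 8.81 and 23.9 CPM and then 202 and 559 CPM (log2 differences 3.33 ± 0.68 and 3.32 ± 0.66). ost-1, the SPARC homologue, had 10.4, 42.4 and 479.9 CPM and then 400.2, 656 and 2979 CPM (log2 difference 3.54 ± 0.59, adjusted p 1.12e-04), and nid-1, nidogen, 0, 142 and 368 CPM and then 465, 743 and 810.1 CPM with no overlap. The laminin subunit lam-3 was already at a median of 361 CPM and rose by 1.17 ± 0.3. dgn-1, a dystroglycan, fell from 14.7, 22.1 and 33.5 CPM to 0, 5.33 and 14.4 CPM, so the ranges only just missed each other. In later embryos 79, 126 and 125 a count of 0 allows 18.7, 40.1 and 161 CPM, so this lack of overlap is not firm.

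Innexins, the gap junction proteins of invertebrates, gave 6 rises among 9 tested and 0 falls, with a median log2 difference of 2.77. Within block 5, 2 of 8 rose, at a median of 1.12. inx-12 and inx-13 rose without overlap, inx-12 from 20.6, 64 and 125 CPM to 201, 453 and 651 CPM and inx-13 from 29.6, 60 and 359.9 CPM to 424, 698 and 1503 CPM. inx-3, which is used widely in the embryo, was not called, with 1078, 2037 and 3494 CPM and then 636, 1565 and 2117 CPM. The summed share of the innexins overlapped between the groups, 0.425% to 0.812% and then 0.398% to 0.762%.

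The gut and pharynx are founded earlier in development. pha-4, the FoxA factor of pharynx and gut, had 312, 716 and 977 CPM and then 215, 728 and 1017 CPM (log2 difference 0.05 ± 0.26, adjusted p 0.932). Of 9 pharynx regulators, 2 rose and 1 fell, lin-35, which is also in the replication list. Over all genes tested 7.13% rose and 5.6% fell. The rises were ceh-22, an NK-type homeobox gene of pharyngeal muscle (5.32 ± 0.75, adjusted p 1.69e-05), and peb-1 (2.96 ± 0.89, adjusted p 0.0217, and 0.0827 without embryo 79). elt-2, the main gut GATA factor, was not called (log2 difference -0.42 ± 0.44), while elt-7, its partner, fell by 1.5 on the log2 scale (adjusted p 0.0189) and was at 0.22 within block 4. It was not called without embryos 74, 79 and 118, at -0.78. pqm-1, a zinc finger gene of the intestine, rose from a median of 2.34 CPM to 59.4 CPM. Of 13 intestinal differentiation genes tested, 2 rose, eps-8 and cpr-6, and eps-8 lost its call without embryo 79 (log2 difference 1.32, adjusted p 0.0619). eps-8 is also among the rises of the hemidesmosome and epidermal filament list. ges-1, a gut esterase, and act-5, the microvillar actin, were not called (0.14 ± 0.48 and 0.89 ± 0.42), and act-5 was called higher without embryo 62, at 1.21.

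Neurons are born and acquire their identities around this time. Of 23 neuronal identity transcription factors tested, 10 rose and 2 fell. Without embryos 74, 79 and 118 the counts were 7 and 4 of 21, and within block 5 none of 13 was called. unc-86, a POU homeobox gene of touch and other neurons, had 0, 0.879 and 36.5 CPM and then 53.7, 71 and 118 CPM without overlap (log2 difference 5.00 ± 0.76, adjusted p 4.20e-05). Only embryos 118 and 119 of the earlier group exceeded 10 CPM. The lowest later value, 53.7 CPM, was 1 count in the shallow embryo 125. unc-3, which directs cholinergic motor neurons, had 0, 0 and 36.8 CPM and then 43.6, 62.1 and 429.6 CPM, also without overlap (log2 difference 5.42 ± 0.87, adjusted p 7.29e-05). The homeobox genes lin-11 and unc-42 had log2 differences of 4.3 and 4.19, and both had a median of 0 in the earlier group. ceh-10 and nhr-67 fell (log2 differences -2.17 and -1.66).

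In the list of proneural and SoxB genes, 2 of 15 tested rose, ces-2 and egl-46 (log2 difference 3.69). Neither is itself a proneural bHLH or SoxB gene, ces-2 being a bZIP gene, and no other member was called. cnd-1, a NeuroD homologue, was not called (log2 difference -0.07 ± 0.41). Of 36 axon guidance and outgrowth genes 9 rose and 1 fell, 14 and 1 without embryos 62 and 125, and 1 of 28 rose within block 5. Among the 9, smp-1, plx-2 and vab-1 are also rises of the ventral enclosure list, and sax-7 of the apical junction list. The fall, dgn-1, is also that of the basement membrane list. fmi-1, a Flamingo cadherin, had 1.56, 21.8 and 62.6 CPM and then 50.8, 118 and 249 CPM (log2 difference 2.63 ± 0.4, adjusted p 3.88e-05), and the ankyrin gene unc-44 had 90.5, 453 and 678 CPM and then 746, 957 and 1044 CPM without overlap. In the synaptic list 10 of 44 members had enough counts, and 2 of them rose, the β-tubulin tbb-4 and the endophilin unc-57. unc-57 (log2 difference 1.61) was not called with the block as a covariate (1.32), without embryos 74, 79 and 118 (1.29), without embryo 75 (adjusted p 0.0535) or without embryo 79 (adjusted p 0.0954). rab-3, a synaptic vesicle gene, was at 5.22 CPM or below in every earlier embryo and had too few counts to test. Of 41 genes of ciliary transport, 5 were tested, and 1 fell, the centriolar gene hyls-1.

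Programmed cell death is also active in this interval. Of 28 tested genes of death and engulfment, 3 rose and 5 fell, beside 7.13% and 5.6% of all genes tested. The deoxyribonucleases nuc-1 and crn-6, which degrade DNA of dead cells, fell without overlap: nuc-1 from 101, 147 and 215 CPM to 22.5, 37.5 and 58.3 CPM (log2 difference -2.04 ± 0.27, adjusted p 9.94e-06), and crn-6 from 185, 266 and 448 CPM to 0, 51.8 and 159 CPM (log2 difference -2.15 ± 0.31, adjusted p 2.28e-05). crn-1, which also acts in replication as the FEN-1 homologue, fell by 2.32 on the log2 scale. pig-1, a kinase of asymmetric division, and ced-4, the Apaf-1 homologue, fell (log2 differences -1.17 and -1.09), and ced-4 was not called without embryo 62 (-0.69), without embryo 126 (-0.98) or with the block as a covariate (-0.68). The engulfment receptor ced-1 rose by 1.37 ± 0.4 (adjusted p 0.0182). The 2 other rises, ces-2 and pat-2, belong also to other lists. egl-1 and ced-3, the trigger and the caspase of the pathway, had too few counts to test, with medians of 12.9 and 15.7 CPM and then 9.65 and 6.17 CPM.

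Signalling and positional genes gave isolated calls, with 7.13% higher and 5.6% lower over all genes tested. At these sizes of list, 1 or 2 calls are no result about a list. Of 20 Wnt pathway genes, 1 rose, the Frizzled receptor lin-17 (1.03 ± 0.31, adjusted p 0.0238), which missed the fold or the p threshold in 9 of 18 fits with 1 embryo left out. Of 10 Notch pathway genes, 1 rose, the ligand gene dsl-3 (1.14 ± 0.29, adjusted p 0.00616), with -0.01, 0.52 and 2.2 within blocks 3, 4 and 5. Among 10 Hox genes and cofactors, mab-5 rose without overlap from 0, 8.33 and 15.7 CPM to 31.5, 61.7 and 161 CPM, and the posterior gene nob-1 and the PBC-type cofactor ceh-40 fell (log2 differences -1.23 and -3.7). ptc-1, a Patched homologue, pros-1, a glial Prospero homologue, and ceh-6, a POU gene of the excretory cell, were the single rises of the hedgehog-related, glial and excretory lists (5, 3 and 7 tested). ptc-1 had an adjusted p of 0.0432, and 0.212 without embryo 79, and missed a threshold in 9 of 18 fits with 1 embryo left out.

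The largest single rises and falls are of mixed kinds. ces-2, a bZIP gene known for the death of specific neuron sister cells, had 0, 25.9 and 115 CPM and then 692, 1862 and 2846 CPM (log2 difference 5.61 ± 0.54, adjusted p 1.43e-07). Every later embryo, of all 3 blocks, lay at 692 CPM or above, the lowest being embryo 79. Its mean was highest at 260 to 290 min of all windows of the series. F14F9.5 and D1086.12, which have no symbol, led by fold (6.19 ± 0.61 and 6.16 ± 0.65), from medians of 0 and 1.53 CPM to 65.8 and 85.5 CPM. ikb-1, an IκB-like gene, and tdo-2, a tryptophan dioxygenase, had log2 differences of 4.8 and 4.41.

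zip-7, another bZIP gene, fell the most, from 109.5, 329.9 and 434 CPM to 0, 4.03 and 15.5 CPM (log2 difference -5.29 ± 0.43, adjusted p 1.56e-08). All 10 earlier embryos had at least 109.5 CPM, and the lowest 2, embryos 118 and 119, were labelled 210 and 220 min. The Skp1-related genes skr-7, skr-8 and skr-14, whose products belong to SCF ubiquitin ligases, fell together: skr-7 from 239, 422 and 1441 CPM to 18.1, 28 and 79.7 CPM (log2 difference -4.33 ± 0.45), and skr-8 and skr-14 with log2 differences of -4.45 and -4.63. These genes are close relatives, and how reads shared between them were placed is not stated in the labels. nlp-31, an antimicrobial peptide gene, had 300.3, 969 and 1824 CPM and then 13.4, 71.8 and 155 CPM (log2 difference -3.62 ± 0.34, adjusted p 1.43e-07). T22B7.3, F22B7.9 and C39B5.2, which have no symbol, fell without overlap (log2 differences -5.24, -4.78 and -3.59). The lowest earlier values of T22B7.3 and F22B7.9 were 46.4 and 70.1 CPM. A count of 0 in embryo 125 allows 161 CPM, so the lack of overlap is not firm for these genes. For C39B5.2 the lowest earlier value was 169 CPM.

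**Figure D3:**
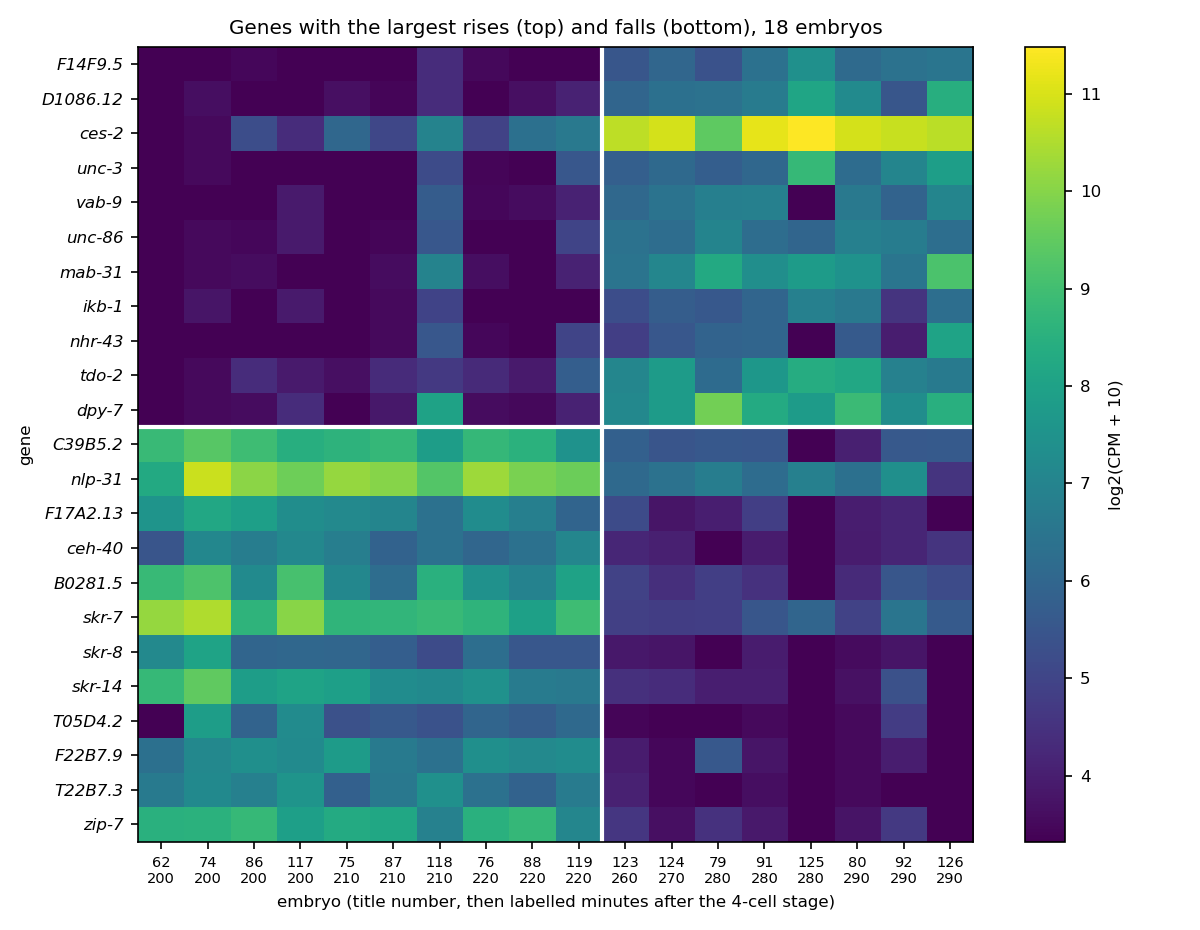
log2 of CPM + 10 (colour) of 11 of the 12 genes with the largest rises and the 12 with the largest falls (rows) in 18 embryos (columns, ordered by labelled time, title number above the minutes). Genes were chosen by this contrast, so the division itself is no result. Embryo 118 has raised levels of many genes in the upper rows, such as 250 CPM of dpy-7, and embryo 125 has dark cells above and below, its total being 18624 counts.

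The remaining lists were read in the same way. Of 78 cytosolic ribosomal protein genes 0 were called, although 77 lay above 0 with a median log2 difference of 0.64, and their share was 4.4% to 8.7% and then 6.22% to 12.4%. Without embryos 74, 79 and 118 there were 4 calls, and within block 5 there were 9, all higher. None of 12 mitochondrially encoded genes and none of 5 adult yolk protein genes was called, but vit-2, a yolk gene, was called higher within block 3 (log2 difference 2.71, adjusted p 0.00716) and was at -4.53 within block 4 (adjusted p 0.101). Yolk genes, markers of adult tissue, took 0.00125% to 0.37% of counts and then 0.000916% to 0.239%, and sperm genes at most 0.0237%. Among 22 maternal regulators 1 fell, nos-2, which is needed in germline precursors, and among 3 early zygotic regulators tested 1 fell, sdz-28. Of 22 chaperone genes 3 rose, hsp-12.1, hsp-25 and hsp-1, beside 7.13% of all genes tested. hsp-25 missed the p threshold in 12 of 18 fits with 1 embryo left out, hsp-12.1 without embryo 79 (adjusted p 0.0834) or 80 (0.0559), hsp-1 missed the fold in 3 of the 18 fits, and the 2 small heat shock genes were at -0.24 (hsp-12.1) and -0.21 (hsp-25) within block 5.

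Embryos labelled between the groups were set beside them. Over 7 embryos of blocks 3 to 5 labelled 230 to 250 min, the mean was compared with the means of the groups. It lay between them for 403 of the 421 genes that rose (95.7%) and 318 of the 331 that fell (96.1%). These genes were chosen for the gap between the groups, which by itself favours a mean inside it. The same shares over all genes tested were not counted, here or for the other windows below. They are a description. The 4 embryos of block 1 labelled 240 and 250 min were left out. They were closest in profile to embryos of 400 to 450 min, and against other blocks alone to those of 350 to 390 min (embryos 1 and 2), 300 to 340 min (embryo 3) and 400 to 450 min (embryo 4). At 300 to 340 min, 287 of the genes that rose had a still higher mean, and 134 a lower one. Of the genes that fell, 236 were lower still at 300 to 340 min and 95 were above. The means at 300 to 340 min include embryo 65, with 88778 gene counts and 6.17% of gene and spike-in counts from spike-ins. mcm-3 had 1250 CPM in it, 98.7 and 102 CPM in embryos 66 and 131 of the same labelled time, and a window mean of 209 CPM. The counts without embryo 65 were not made. Earlier, 368 of the genes that rose had a lower mean at 150 to 190 min than at 200 to 220 min. Among the genes that fell, for 87 the highest mean of the series was at 150 to 190 min, for 71 at 200 to 220 min and for 54 at 110 to 140 min.

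**Figure D4:**
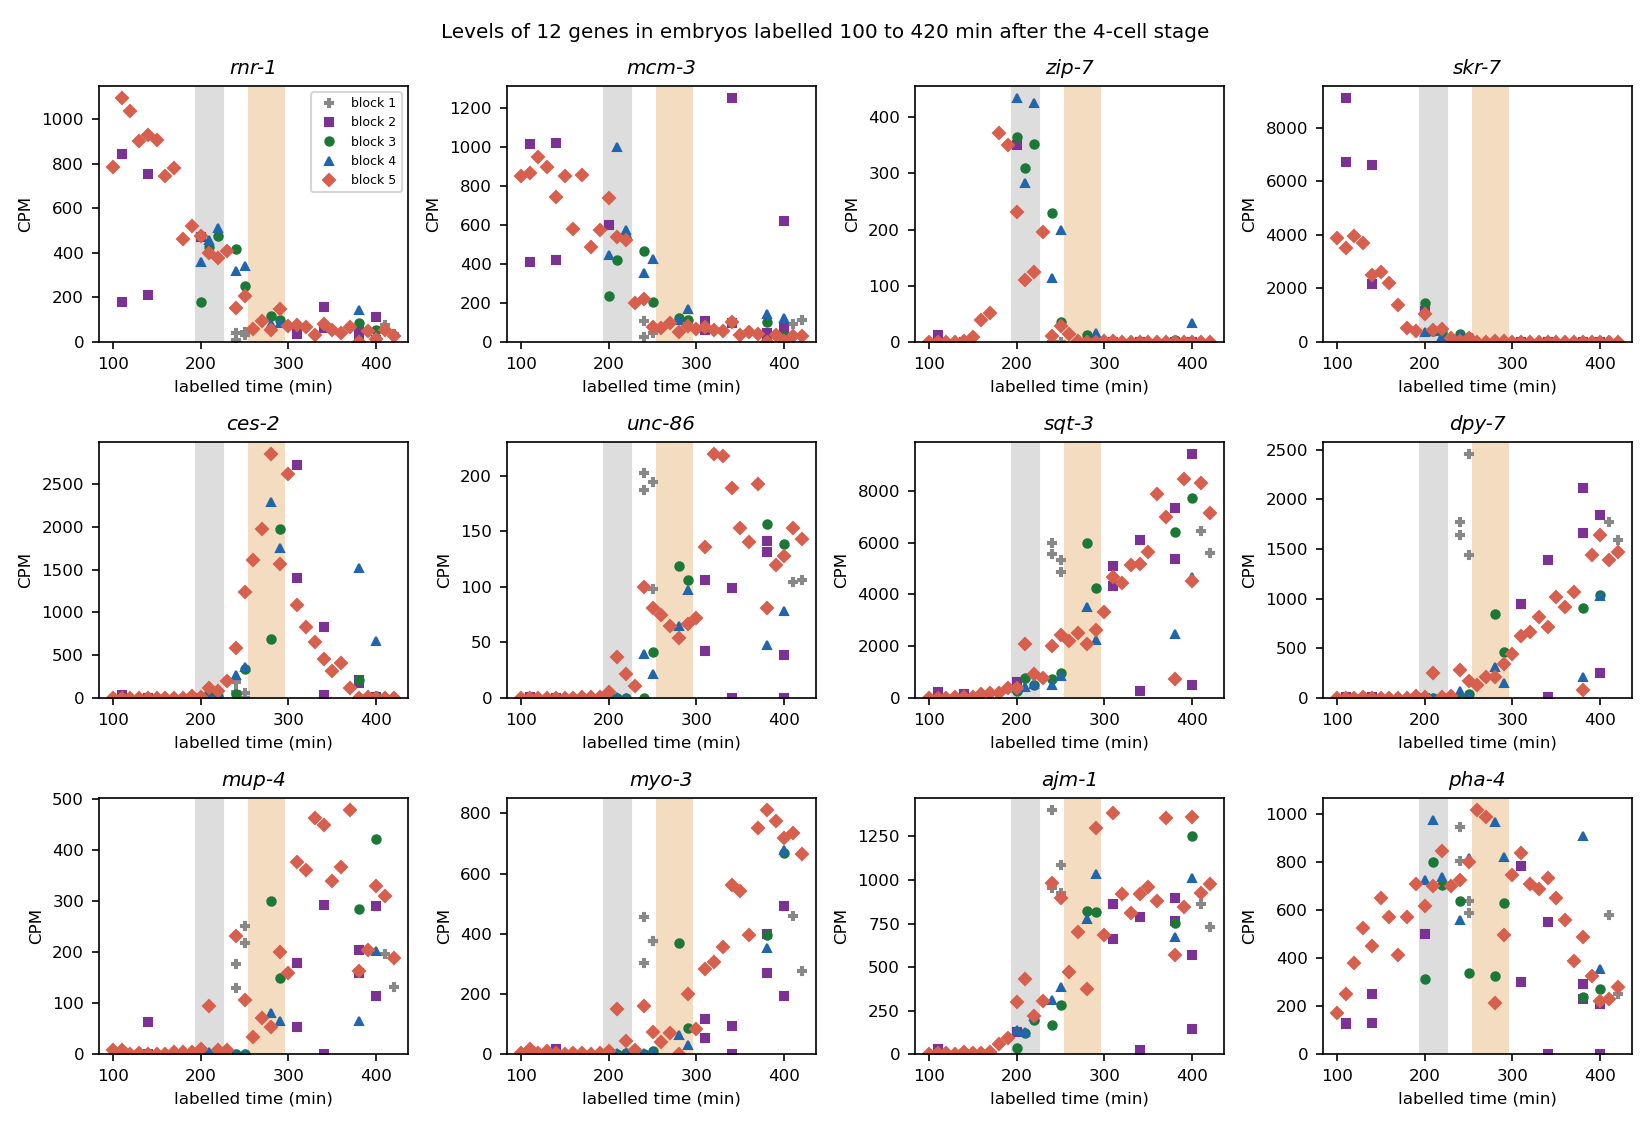
CPM (vertical axes from 0) of 12 genes against labelled time, each point 1 embryo, shape and colour giving the block; grey and orange bands mark the compared groups. ces-2 and zip-7 are transient, while sqt-3 and dpy-7 go on rising. The block 1 embryos labelled 240 and 250 min stand off from the other blocks. pha-4 overlaps between the groups, from 312 to 977 CPM and from 215 to 1017 CPM.

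The position of each embryo between the groups was described by the median, over the called genes, of its level between the group means, set at 0 for 200 to 220 min and 1 for 260 to 290 min. On the genes that rose, 9 earlier embryos lay between -0.47 and 0.07 and embryo 118 at 0.73, and later embryos lay between 0.8 and 1.36. On the genes that fell, embryo 118 lay at 0.16, beside -0.27 to 0.14 in the others, and later embryos lay between 0.67 and 1.47. So the embryo that was late by its rising genes was near its own group by its falling genes. In block 5 the embryos labelled 230, 240 and 250 min stood at 0.21, 1.06 and 0.88 on the rising genes, and in blocks 3 and 4 those of 240 and 250 min at -0.03 to 0.33. These values use the genes that the same embryos chose and are a description.

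**Figure D5:**
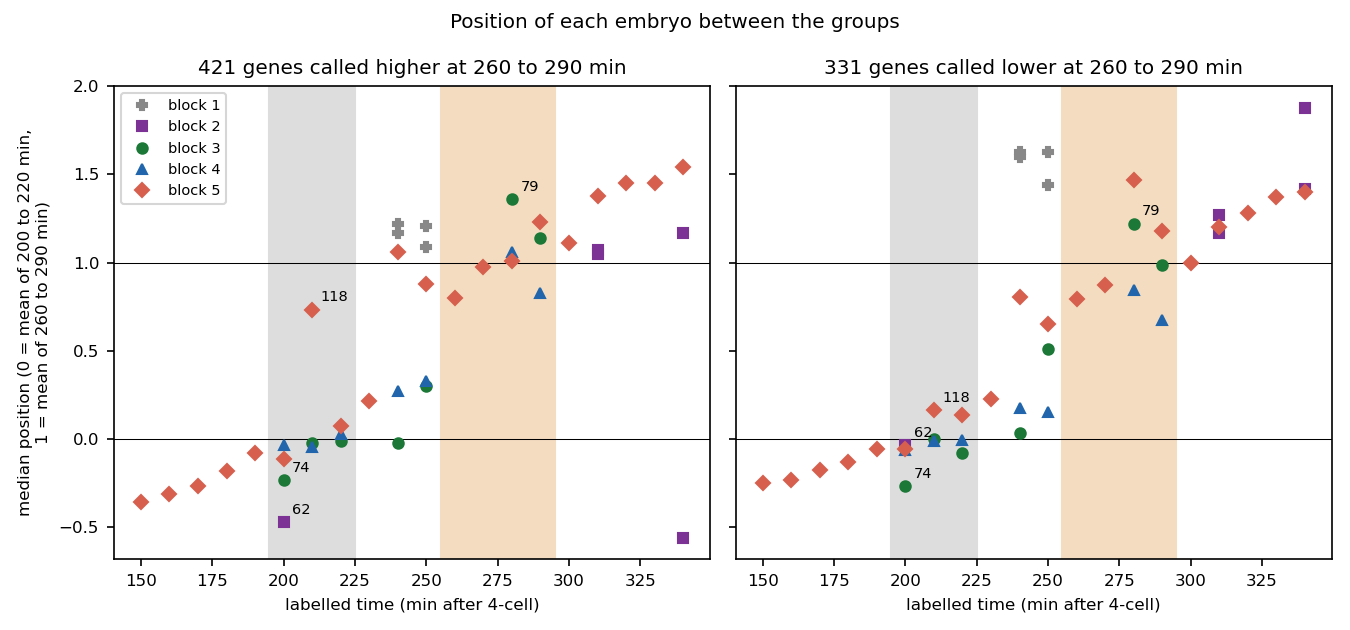
Median position of each embryo between the group means (vertical axis, 0 and 1 being the means) over the genes called higher (left) and lower (right), against labelled time; shape and colour give the block. Embryo 118 sits at 0.73 on the left and 0.16 on the right, and the block 1 embryos labelled 240 and 250 min sit above 1 on both sides.

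The difference was also read within blocks. Within block 3, 424 genes rose and 206 fell of 7087 tested (5.98% and 2.91%). Within block 4 the counts were 512 and 325 of 6996 (7.32% and 4.65%), and within block 5, 117 and 135 of 3766 (3.11% and 3.58%). Of the genes that rose over all embryos, 239 of 420 tested were called the same way within block 3, 306 of 416 within block 4 and 49 of 284 within block 5. Of those that fell, 153 of 331, 198 of 331 and 103 of 224 were. The embryos of each block took part in choosing these genes. With the block as a covariate 472 genes rose (7.99%) and 349 fell (5.91%), among them 405 and 300 of the genes called without it. Embryos 118 and 125 are in block 5, and the part of embryo 118 in the smaller differences there was not tested beyond the fits without it. The size of the difference itself depended on the block for 71 of 7986 genes (0.889%) in an edgeR test of the interaction, but for 1 gene without embryo 118. The number also moved to 9 without embryo 123, 11 without embryo 124, 32 without embryo 76, 113 without embryo 74, 123 without embryo 117 and 152 without embryo 80. Without embryos 62 and 125, 568 genes rose (8.69%) and 398 fell (6.09%), including 405 and 304 of those called over all embryos. Without embryos 74, 79 and 118, 461 rose (7.53%) and 288 fell (4.7%), including 378 and 259.

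The total amount of mRNA relative to spike-ins was compared between the groups. The log2 ratio of gene to spike-in counts was 8.39 ± 0.88 (SD, n = 10) and then 8.60 ± 0.52 (SD, n = 8), and the difference of 0.21 was smaller than the spread (exact two-sided permutation test, p = 0.563, adjusted over 2 such tests 0.605). Within block 5 the difference was -0.72 (exact permutation p = 0.229, 3 against 4 embryos). The plain mean of the differences within blocks 3 to 5 was 0.08. With labels permuted within these blocks, the exact permutation p was 0.944, but it belongs to another value. That value is the sum of the later embryos' ratios after subtracting each block's mean, which weights blocks by their embryos. The X-linked share of gene counts was 13.7% ± 1.21 (SD, n = 10) and 14.0% ± 1.16 (SD, n = 8), a difference of 0.3 percentage points (exact two-sided permutation p = 0.605, adjusted 0.605). Of the 717 X-linked genes tested, 73 rose and 44 fell, beside 7.13% and 5.6% of all genes.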

How the data were processed

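Raw counts per gene and embryo were deposited by the authors in 1 table of 20687 gene lines, 92 spike-in lines and 5 counters, with no normalization, per the file headers and the values. The submitters' processing notes name HTSeq 0.5.4p3, Bowtie2 2.1.0 and CASAVA 1.8 without saying what each did, and name no genome build. No molecular identifiers are named in the labels, so counts are of amplified reads, and floors cover counting error only. In the 18 embryos a median of 55.4% of reads was counted in genes, and the rest, in counters and spike-ins, stayed out of library sizes. Symbols and chromosomes came from Ensembl release 115 (20083 lines matched to 1 gene). Chi-square per degree of freedom was 2.71 or more in all 18 pairs of equal labelled time, so no pair agreed within counting noise.

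The groups, lists and members were chosen with earlier results of these data known, and so were the rules. The test was the quasi-likelihood F-test of edgeR 4.0.16 (R 4.3.3), after filterByExpr (minimum count 10) and TMM scaling, with Benjamini-Hochberg adjustment over all genes tested, and SE is the log2 difference divided by the square root of F. Calls need a fold of 2 or more besides an adjusted p under 0.05. No test was made of a list: 39 lists (15 names unmatched) are described by counts and medians. Genes named by rule are the 12 largest called rises and 12 largest called falls (mean of 50 CPM or more in the higher group), the 2 called members of each list with the largest change and at least 20 CPM, all called members where a list has 5 or fewer in a direction, and 30 markers whatever their values. Other list members in the text were chosen for their role after their values were seen. One gene named by the rule is not reported here. Profiles were compared on log2 of CPM plus 10.

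On simulated data with the depths and spread of these embryos, the test called 27 of 100 genes with a 2-fold change, 89 of 100 with a 4-fold change and 2 of 5707 with none. Genes were drawn independently there, without blocks and without embryos off their labelled time. False calls from such shared shifts were therefore not measured. The fold threshold by itself also holds back many genes with a true 2-fold change. Alternatives were relative log expression size factors, DESeq2 1.42.0, no filter beyond 1 count, the block as a covariate, fits within blocks, labelled time as a term, embryo 61 added, and single embryos left out. The fit on labelled time also took in the 7 embryos of 230 to 250 min in blocks 3 to 5. Fits without embryos 62 and 125, and without 74, 79 and 118, were added after seeing the data. Python 3.11.15, pandas 2.3.3, scipy 1.17.1 and matplotlib 3.10.9 made tables and figures.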

Additional observations from a re-analysis of the deposited data

Results flagged for a closer look

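In 56 of the 236 groups of values examined (the named genes in each group of embryos, on log2 of CPM plus 10), 1 embryo lay far from the nearest other by Dixon's criterion, where chance gives about 1 in 20. The outlying values gather on a few embryos.

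Embryo 118 stood high in the earlier group for 15 genes, among them dpy-7 (250.4 CPM), dpy-2 (235 CPM), hsp-12.1 (209 CPM), mab-31 (115 CPM), mup-4 (93.9 CPM), eva-1 (93.9 CPM), mua-3, tmd-2 and egl-46 (each 62.6 CPM), cdh-3 (52.2 CPM), vab-9 (41.7 CPM), ikb-1 (20.9 CPM), ceh-22 (15.65 CPM) and F14F9.5 (10.4 CPM). Embryo 119 stood high for pqm-1 (22.1 CPM).

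Embryo 74 stood low in the earlier group for mcm-7 (356 CPM), rnr-1 (181 CPM), lin-35 (159 CPM), mcm-2 (63.2 CPM), dlg-1 (43.7 CPM), hsp-1 (39.8 CPM), ajm-1 (32.8 CPM), sma-1 (28.9 CPM) and vab-10 (17.9 CPM). Embryo 62 stood low for efn-2, ceh-10 and elt-2 (each 0 CPM) and unc-119 (78.1 CPM), and high for ced-4 (627 CPM).

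In the later group embryo 125, with the fewest counts, stood at 0 CPM for vab-9, elt-3, elt-1, smp-1, ptc-1, unc-95, pqm-1, pig-1, nhr-25, vab-10, let-653 and act-5 and at 53.7 CPM for tbb-4, and stood high for mcm-2 and hlh-1 (each 215 CPM) and mab-5 (161 CPM). Embryo 79 stood low for ces-2 (692 CPM), cyb-1 (280.5 CPM) and dsl-3 (125 CPM), and high for peb-1 (399 CPM), F22B7.9 (37.4 CPM) and rab-3 (24.9 CPM). Embryo 126 was low for nlp-31 (13.4 CPM) and vab-1 (40.1 CPM), embryo 123 high for T22B7.3 (6.74 CPM), and embryo 92 high for T05D4.2 (17.5 CPM).

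For 10 named genes the difference between the groups itself differed between blocks 3, 4 and 5 in edgeR's interaction test: dpy-7 (adjusted p 0.0021), unc-86 and peb-1 (each 0.0124), mup-4 (0.0212), myo-3 (0.0276), tmd-2 and hsp-25 (each 0.029), ost-1 and hsp-12.1 (each 0.02925) and vab-9 (0.0394). All 10 had a smaller log2 difference in block 5, or too few counts there to test, and without embryo 118 the test called 1 gene in all.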

How the results depend on the processing

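Counts of 421 higher and 331 lower genes became 1381 and 549 with no filter beyond 1 count, where the median log2 difference of all genes was 0.20, 117 and 135 within block 5, where 3766 genes were tested, and 206 lower within block 3. Leaving out single embryos gave 303 to 515 higher and 290 to 378 lower. DESeq2 gave 454 and 348, and labelled time as a term 475 and 306, with the 7 embryos of 230 to 250 min added to that last fit. Genes whose difference depended on the block numbered 352 without the filter and 1 to 152 with single embryos left out. The log2 ratio of genes to spike-ins turned to -0.72 within block 5, and ran from 0.04 to 0.38 with single embryos left out. The X-linked difference ran from -0.0097 to 0.637 percentage points. No paired analysis was possible because replicate numbers follow accession order.

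Of 78 counts of called members of lists, 35 moved by over 1.5 times within block 5, 9 without embryos 62 and 125, 6 each with the block as covariate, without embryo 62 and without embryos 74, 79 and 118, and 2 with DESeq2. Of 97 called named genes, 28 were called the same way within block 5, 45 were tested and not called, and 24 could not be tested.

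Called genes turned sign within single blocks or with embryo 61: within block 5 ptc-1 (-0.12), hsp-12.1 (-0.24) and hsp-25 (-0.21), within block 4 elt-7 (0.22), within block 3 dsl-3 (-0.00897), and cpr-6 with embryo 61 (-0.68). Markers that were not called turned sign too, mostly near 0 and vit-2 by the most. With the block as covariate these were pha-4 (-0.0242), ges-1 (-0.0692), cnd-1 (0.32) and vit-2 (0.23); within block 3, let-653 (-0.12), pha-4 (-0.37), ges-1 (-0.67), cnd-1 (0.13) and vit-2 (2.71, past both thresholds); within block 4, lin-26 (-0.21), hlh-1 (0.38), cnd-1 (0.00933) and unc-119 (0.11); within block 5, nhr-25 (0.29), cnd-1 (0.72) and vit-2 (0.28). Without embryo 62 cnd-1 was 0.23 and vit-2 0.36, without embryos 62 and 125 0.25 and 0.36, and without embryos 74, 79 and 118 hlh-1 was 0.0752. With embryo 61 hlh-1 was 0.00319 and cnd-1 0.0358, with DESeq2 vit-2 was 0.065 and with labelled time 0.10. With single embryos left out hlh-1 ran from -0.31 to 0.00955, pha-4 from -0.0505 to 0.17, cnd-1 from -0.28 to 0.23 and vit-2 from -0.25 to 0.40. The causes were not tested. Genes with few counts, and the zeros of embryo 125, limit what could be called.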

Other observations

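Families sharing a gene name prefix were counted after the values were seen, with no test, beside 7.13% higher and 5.6% lower over all genes tested. Of 12 skr genes tested, 5 fell and 0 rose. Of 13 fbxb genes, which encode F-box proteins, 4 fell and 2 rose. Of 46 nhr genes, nuclear hormone receptors, 8 rose and 3 fell, a share of falls near that of all genes, and of 26 ceh homeobox genes 7 rose and 3 fell. Of 7 cutl genes, cuticlin-like, 5 rose and 1, cutl-25, fell. Of 18 col genes, further cuticle collagens, 5 rose and 0 fell, with a median log2 difference of 2.13. Reads shared by close members may have been placed at 1 locus.

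cht-1, a chitinase gene outside the lists and chosen after its values were seen, had 2926, 3756 and 5347 CPM at 200 to 220 min and 87.3, 564 and 1100 CPM at 260 to 290 min, with no overlap (log2 difference -2.73 ± 0.33, adjusted p 2.50e-06 in edgeR).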
